A study of Mus musculus with 8 samples.

Results

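The genes described here encode water channels (aquaporins), urea transporters and the vasopressin V2 receptor, in IMCD, a line of mouse cells from the inner medullary collecting duct, kept with or without added NaCl. They were the rows of the raw count table with the symbol Aqp1, Slc14a2, Avpr2 or Slc14a1, or with Aqp followed by a number. The rule matched 8 of 15288 genes, namely Aqp1, Aqp2, Aqp3, Aqp4, Aqp5, Aqp11, Slc14a2 and Avpr2. Cells were grown near to confluence and moved for 12 h to DMEM without serum, either as such (control, 4 libraries, numbered 1 to 4) or with 100 mmol NaCl (NaCl, 4 libraries, numbered 5 to 8). The labels give the amount of NaCl without a volume, and name 1 cell line and no vasopressin or other agent. They do not say whether the libraries of a group came from separate cultures, so the p-values measure the spread between these libraries, which may be technical.

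In the kidney, vasopressin binds the V2 receptor on the collecting duct cell and raises cyclic AMP through the stimulatory G protein and adenylyl cyclase, and protein kinase A then drives the water channel Aqp2 to the apical membrane. Water leaves the cell on the basolateral side through Aqp3 and Aqp4, and urea passes through transporters encoded by Slc14a2 into the hypertonic inner medulla. Aqp1 is known as the constitutive water channel of the proximal tubule, the thin descending limb and the descending vasa recta.

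Aqp1, Slc14a2, Avpr2 and Aqp5 were higher with NaCl, with edgeR quasi-likelihood p-values under 0.05 after Benjamini-Hochberg adjustment over all tested genes. A gene is called at this threshold, and log2FC stands for the log2 fold change of NaCl over control. Of the 8 genes, 6 passed the expression filter. Aqp1, Aqp5 and Slc14a2 reached its level in all 8 libraries, Aqp11 reached it in 4 control and 3 NaCl libraries, Aqp4 in 4 control and 1 NaCl library, and Avpr2 in 1 control and 4 NaCl libraries. The 4 genes called were all higher, where 16.9% of all tested genes were called higher and 34.1% were called in either direction. Aqp4 and Aqp11 were not called, so edgeR called 0 of the 6 lower, against 17.2% of all tested genes. Avpr2 passed the filter through the NaCl libraries, where it is high, so its direction adds nothing to this count. Neither Aqp4 nor Aqp11 had an unadjusted p-value under 0.05 in that direction, and DESeq2 and limma-voom also called 0 lower. In 5 genes, the 4 called and Aqp2, every NaCl library lay above every control library, which held for 15.5% of all genes in the table. In bulk RNA a change in the share of cells that carry a transcript and a change in transcript per cell cannot be told apart.

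**Figure D1:**
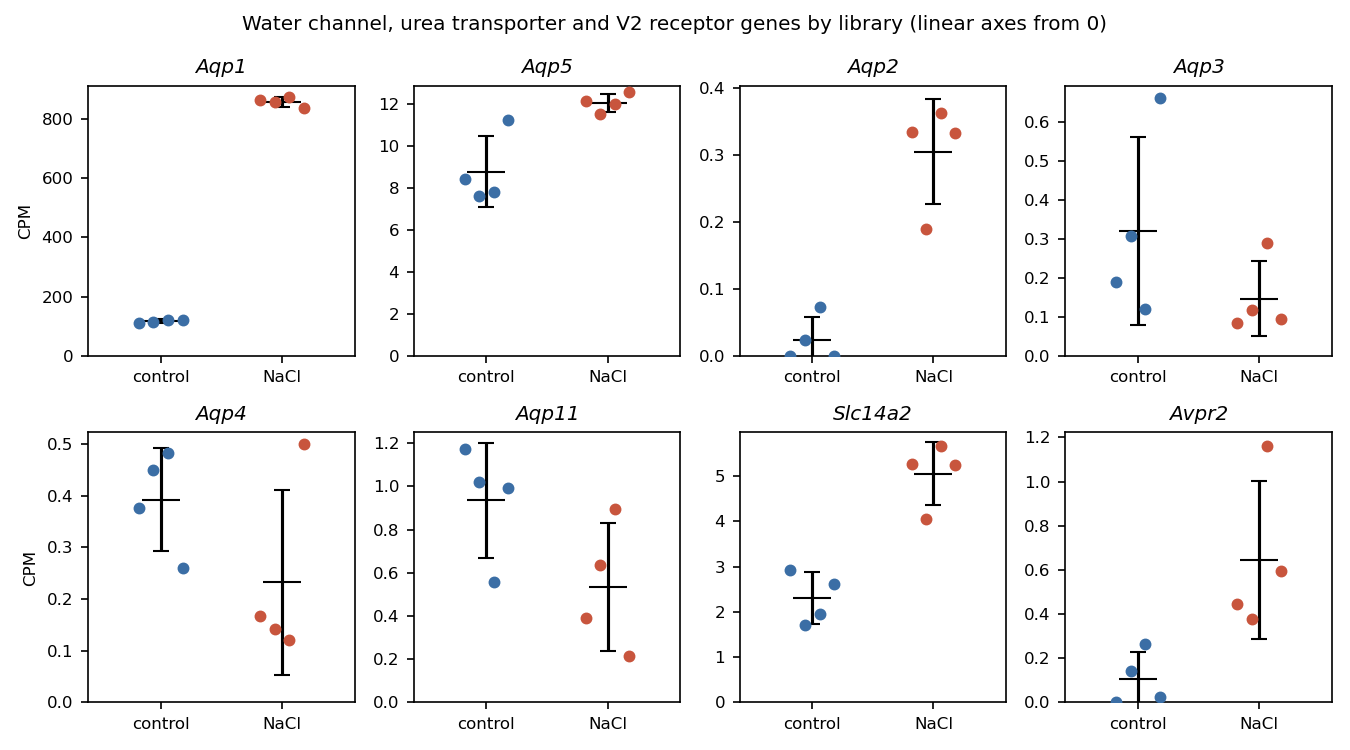
CPM (counts scaled to library size, vertical axes from 0) of the 8 genes in the 4 control and 4 NaCl libraries, 1 point per library, with the mean and SD of each group (bars cut at 0). The groups do not overlap for Aqp1, Aqp5, Aqp2, Slc14a2 and Avpr2, and overlap for Aqp3, Aqp4 and Aqp11.

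Aqp1 was the most abundant of these genes in both groups. In CPM, which are counts scaled to library size, control replicates 1 to 4 had 112, 116, 122 and 123, and NaCl replicates 5 to 8 had 863, 857, 873 and 836. Every NaCl library was far above every control library, and the libraries of a group lay close together. This is a fold of 7.27, or a log2FC of 2.86 (SE 0.038; edgeR adjusted p = 3.61e-18). The control SD of 5.26 CPM and the NaCl SD of 15.9 CPM were both above the 1.65 and 4.62 CPM that counting error alone gives. Of all tested genes, Aqp1 had the 28th highest log2FC, and its gain of 739 CPM was the 3rd largest in the table. On the scale of CPM per kilobase of annotated exon, which permits levels to be compared between genes, Aqp1 stood at place 1062 of 15282 genes in the controls and at place 90 with NaCl. The gene (ENSMUSG00000004655) lies on chromosome 6 from 55336432 to 55348555 on the plus strand in mm10, with 1 annotated transcript and no other annotated gene over it.

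The genes whose pattern over the 8 libraries was most like that of Aqp1 were Ranbp3l, Akr1b3, Cldn15, Rnf183 and B230312C02Rik. Likeness was the root mean square difference of log2 CPM after each gene was centred on its own mean, among the 12367 tested genes whose mean log2 CPM reached 0. The difference was 0.058 for Ranbp3l, 0.12 for Akr1b3 (which encodes aldose reductase), 0.17 for Cldn15 (a claudin of the tight junction), 0.23 for Rnf183 (a RING finger protein) and 0.31 for B230312C02Rik. Pearson's r with Aqp1 over these 8 libraries lay between 0.984 and 0.999, a description of libraries that fall into 2 groups. Cldn15 had 1.36 ± 0.102 CPM in control and 10.95 ± 1.74 CPM in NaCl libraries, and Rnf183 had 1.92 ± 0.486 and 13.8 ± 1.44 CPM (SD, n = 4 each).

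Aqp5, known as an apical water channel of secretory glands and the lung, was the second aquaporin by level and was higher with NaCl. It had 8.44, 7.63, 7.80 and 11.3 CPM in the control libraries and 12.2, 11.6, 12.0 and 12.6 CPM in the NaCl libraries. The highest control library, replicate 4, lay just under the lowest NaCl library. Its log2FC was 0.46 (SE 0.11; edgeR adjusted p = 0.00398). Without control replicate 4 it was 0.60. In a fit with a straight trend along the library number from 1 to 8 it was 0.16 and not called (edgeR adjusted p = 0.613).

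Aqp2, the vasopressin-regulated water channel of the apical membrane, was nearly absent from the controls. Control replicates 1 to 4 held 0, 1, 3 and 0 counts and NaCl replicates 5 to 8 held 12, 8, 15 and 14, so the groups did not overlap. A count of 0 allows a level of up to 3 counts in that library. Summed counts were 4 and 49, a ratio of 13.2 after scaling for library size, with an exact 95% interval from 4.83 to 50.3 that covers counting error only. Aqp2 did not pass the expression filter. In the edgeR fit without a filter, which tests all 15288 genes, it was called higher (adjusted p = 0.00263). Its NaCl mean was 0.305 ± 0.0786 CPM (SD, n = 4).

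Aqp2 and Aqp5 are neighbours on chromosome 15, with Aqp2 from 99579055 to 99584547 and Aqp5 from 99590782 to 99594829, both on the plus strand in mm10. Aqp6 follows on the same strand from 99601400 to 99605477, and no row was matched to it. The 250 bases before the RefSeq start (GRCm38.p6, plus strand) are shown for Aqp1 and Aqp2, the water channel genes with the highest ratios of NaCl to control, though that of Aqp2 rests on 4 control counts. The windows are chr6:55336049-55336298 for Aqp1 and chr15:99578806-99579055 for Aqp2. Capitals mark matches to the searched letters.
Aqp1: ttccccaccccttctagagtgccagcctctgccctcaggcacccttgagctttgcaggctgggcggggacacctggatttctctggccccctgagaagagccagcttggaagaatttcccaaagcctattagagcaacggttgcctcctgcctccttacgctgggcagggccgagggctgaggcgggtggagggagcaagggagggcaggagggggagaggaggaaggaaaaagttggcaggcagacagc
Aqp2: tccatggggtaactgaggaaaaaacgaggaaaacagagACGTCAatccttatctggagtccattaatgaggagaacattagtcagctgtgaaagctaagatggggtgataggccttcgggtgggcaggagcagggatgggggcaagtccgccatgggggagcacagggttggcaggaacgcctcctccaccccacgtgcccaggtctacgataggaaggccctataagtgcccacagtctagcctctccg
The letters searched on both strands were TGGAAA (the core of the tonicity-responsive enhancer that Nfat5 binds), ACGTCA (the core of the cyclic AMP response element) and TATAAA (the TATA box), which do not overlap one another in these windows. Of 32851 windows of this length before annotated starts, 18.6% held TGGAAA, 6.47% held ACGTCA and 12.4% held TATAAA. The Aqp2 window held ACGTCA once, 212 to 207 bases before the start. The Aqp1 window held none of the 3 in these letters, which says nothing about sites elsewhere. The share of G and C was 62.0% for Aqp1 and 55.6% for Aqp2, and the median of all windows was 52.4%. The RefSeq start of Aqp1 lies upstream of the start of the GENCODE transcript, and that of Aqp5 lies within an annotated UTR, so its window is not shown.

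The other 3 aquaporins with a row were low in both groups, under 1 CPM on average, and none was called. Aqp3, a basolateral channel for water and glycerol, had counts of 9, 13, 5 and 28 (control) and 3, 5, 12 and 4 (NaCl). The groups overlapped, and Aqp3 did not pass the filter (adjusted p = 0.211 in the edgeR fit without a filter). Aqp4, a basolateral water channel, had counts of 18, 19, 20 and 11 (control) and 6, 6, 5 and 21 (NaCl). Its log2FC was -0.74 (SE 0.48; edgeR adjusted p = 0.26), and NaCl replicate 8 was the only library of its group at the level of the controls. Without that library the log2FC was -1.44 and the gene was called (adjusted p = 0.0393). In that fit Aqp4 passed the filter through the control libraries alone, where it is high, so its direction there adds nothing. Aqp11, an aquaporin of intracellular membranes, had counts of 56, 43, 23 and 42 (control) and 14, 27, 37 and 9 (NaCl), with a log2FC of -0.80 (SE 0.39; adjusted p = 0.124). Without NaCl replicate 7, the highest of its group, it was -1.17 and called (adjusted p = 0.0464).

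The GENCODE M21 annotation also lists Aqp6, Aqp7, Aqp8, Aqp9, Aqp12 and the urea transporter gene Slc14a1. No row of the count table was matched to these 6 genes, and they were not analysed here. The lowest total of any gene in the table was 19 counts over the 8 libraries.

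Levels per kilobase placed the genes in the order Aqp1, Aqp5, Slc14a2, Aqp3, Aqp11, Aqp4, Avpr2 and Aqp2 in the controls. The means were 44.9 ± 2.0 for Aqp1, 3.38 ± 0.648 for Aqp5, 0.446 ± 0.110 for Slc14a2 and 0.175 ± 0.132 CPM per kilobase for Aqp3 (SD, n = 4). From Slc14a2 downward the libraries of each gene overlapped those of the next. With NaCl the means were 326 ± 6.07 for Aqp1, 4.65 ± 0.165 for Aqp5, 0.978 ± 0.136 for Slc14a2, 0.224 ± 0.124 for Avpr2 and 0.215 ± 0.0554 CPM per kilobase for Aqp2 (SD, n = 4). Avpr2 and Aqp2 thus moved from the last places in the controls to places 4 and 5, ahead of Aqp3, Aqp11 and Aqp4, though the libraries of Avpr2 and Aqp2, of Aqp2 and Aqp3, and of the genes below them overlapped. Aqp1 made up 92.3 ± 1.24% of the summed level of the 6 aquaporins in control and 98.5 ± 0.0775% in NaCl libraries, and Aqp5 made up 6.93 ± 1.07% and 1.40 ± 0.0684% (SD, n = 4 each). The other 4 aquaporins together made up 0.725 ± 0.205% and 0.117 ± 0.0297%.

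**Figure D2:**
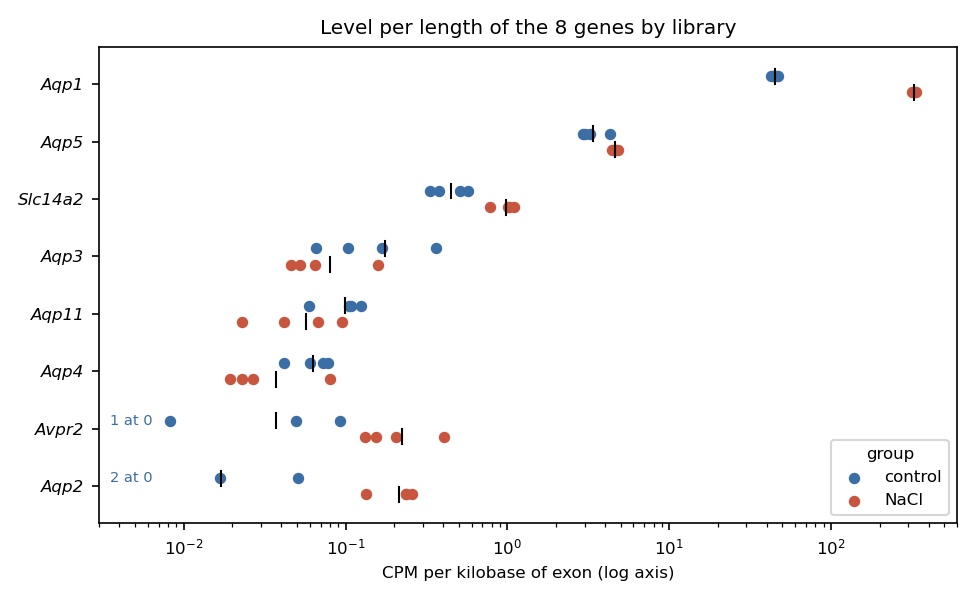
Level per length (CPM per kilobase of annotated exon, log axis) of each gene, 1 point per library, with a bar at the group mean; libraries at 0 are counted at the left edge. Aqp1 stands apart above Aqp5 in both groups, and Avpr2 and Aqp2, the lowest genes in the controls, lie higher with NaCl.

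Slc14a2, which encodes the UT-A urea transporters, was about 2-fold higher with NaCl. It had 140, 72, 81 and 111 counts in the control libraries and 189, 171, 234 and 220 counts in the NaCl libraries. In CPM these were 2.93, 1.71, 1.96 and 2.62 in control and 5.27, 4.04, 5.67 and 5.24 in NaCl libraries, with no overlap. This is a fold of 2.18, or a log2FC of 1.13 (SE 0.18; edgeR adjusted p = 1.02e-04). It was called as well in the fit with a trend along the library number (1.11; adjusted p = 0.0128). With NaCl the gene lay above 26.1% of all genes by level per length, against 20.02% in the controls. The counts are per gene, so its UT-A isoforms, which differ in promoter and length, cannot be told apart. Slc14a2 (ENSMUSG00000024552) lies on chromosome 18 from 78146148 to 78596942 on the minus strand in mm10, with 6 annotated transcripts and no exon shared with another gene. Cfap74, Maf, Pinlyp, Wif1 and Plekhs1 were the genes with the most similar pattern, with root mean square differences of log2 CPM between 0.18 and 0.21 over the 8 libraries and Pearson's r between 0.945 and 0.962.

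Avpr2, which encodes the V2 receptor, was at the edge of detection in the controls and higher with NaCl. Control replicates 1 to 4 held 0, 6, 11 and 1 counts, and NaCl replicates 5 to 8 held 16, 16, 48 and 25. No control library reached the lowest NaCl library, and NaCl replicate 7 was highest. The mean was 0.108 ± 0.122 CPM in control and 0.646 ± 0.357 CPM in NaCl libraries (SD, n = 4 each). Counting error alone gives SDs of 0.0499 and 0.127 CPM, so replicates of this gene spread more than counting does. Its log2FC was 2.60 (SE 0.66; edgeR adjusted p = 0.00685), with a range from 2.14 without NaCl replicate 7 to 3.53 without control replicate 3. It was 1.31 and not called (adjusted p = 0.494) with the trend along the library number. The gene closest to Avpr2 in pattern was B230312C02Rik, with a root mean square difference of log2 CPM of 0.71, followed by Slc17a1, Neu2, Lvrn and Scube3 at up to 0.83. These distances were larger than those of the genes nearest to Aqp1 or Slc14a2, and Pearson's r over the 8 libraries lay between 0.833 and 0.923.

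The annotation places another gene on the opposite strand of Avpr2. Of 2886 exon bases of Avpr2 (ENSMUSG00000031390, chromosome X from 73892102 to 73895502, plus strand, mm10), 2347 (81.3%) are also exon bases of Arhgap4 on the minus strand, and at least 1 annotated Avpr2 transcript is shared over 100% of its length. Whether the counting used strand is not given in the sources used here, so reads of the 2 genes may not be told apart and the Avpr2 counts are uncertain. Arhgap4 had no matched row and was not analysed. The gene L1cam, which spans the locus on the minus strand without a shared exon base, had 152 ± 14.2 CPM in control and 218 ± 9.96 CPM in NaCl libraries (SD, n = 4 each; log2FC 0.52; edgeR adjusted p = 1.99e-05), and its part in the Avpr2 counts was not tested. For the other 7 genes, no exon base overlapped another gene and no transcript stretch of 75 bases matched another gene at 98% identity.

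**Figure D3:**
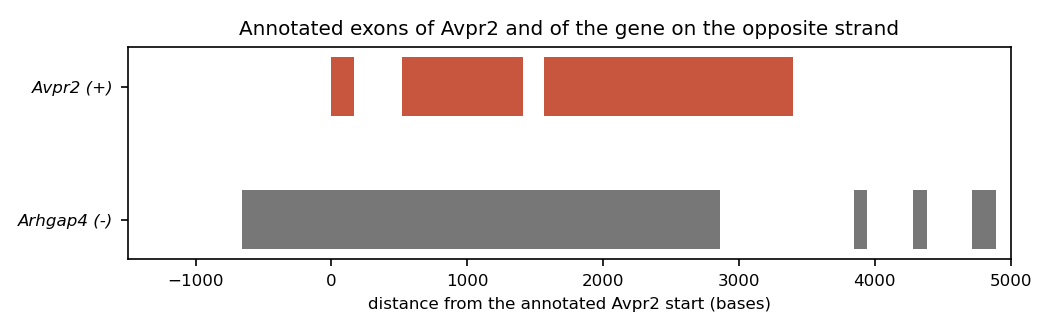
Annotated exons of Avpr2 (plus strand) and Arhgap4 (minus strand), drawn to scale as the distance in bases from the Avpr2 start. A single Arhgap4 exon covers the first part of Avpr2, so that 2347 of its 2886 exon bases are shared.

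Genes that carry the vasopressin signal inside the cell were examined with a list of 35 receptor and cyclic AMP genes, of which 29 had a row and 28 were tested. With NaCl, 11 (39.3%) were called higher and 5 (17.9%) lower (edgeR adjusted p under 0.05), beside 16.9% and 17.2% of all tested genes. The list was chosen with earlier results of these data known. In the reported fit the share called lower was near that of all genes, and over the alternative settings 2 to 6 genes were called lower. The median log2FC was 0.07, where the median of all tested genes was 0.0029. Among the hormone receptors, Avpr1a and Avpr1b had no matched row. Oxtr, the oxytocin receptor gene, had counts of 0, 3, 2 and 4 (control) and 29, 14, 20 and 23 (NaCl), with a log2FC of 3.30 (SE 0.59; edgeR adjusted p = 3.67e-04). It passed the expression filter through the NaCl libraries alone, so a gene tested in this way had to be higher with NaCl. Oxtr is among the 11 called higher, and its direction adds nothing to that count.

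At the G protein and cyclase step, Gnas, the stimulatory G protein gene, had 819 ± 12.0 and 854 ± 15.7 CPM (SD, n = 4 each) and was not called (edgeR adjusted p = 0.145), though it was with the library number centred within its group (adjusted p = 0.0493). Adcy6, a main adenylyl cyclase of the collecting duct, rose from 211 ± 7.03 to 279 ± 2.56 CPM with a log2FC of 0.40 (SE 0.033; adjusted p = 7.55e-08). The cyclase genes Adcy3 and Adcy2 fell, with log2FC values of -0.79 (adjusted p = 1.89e-05) and -0.45 (adjusted p = 0.00649). Of the other cyclase genes tested, Adcy7 had a log2FC of -0.23 (adjusted p = 0.0301) and Adcy9 was not called. Of all tested genes, 34.1% were called in either direction.

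Among the genes for regulatory subunits of protein kinase A, Prkar2b rose from 66.6 ± 2.79 to 201 ± 14.8 CPM (SD, n = 4 each) with a log2FC of 1.59 (SE 0.051; edgeR adjusted p = 2.28e-12), and Prkar1b rose from 0.855 ± 0.373 to 1.99 ± 0.451 CPM (adjusted p = 0.00436). Prkar1a rose with a log2FC of 0.12 (adjusted p = 0.00486). Prkar2a fell from 78.5 ± 3.37 to 63.6 ± 1.09 CPM with a log2FC of -0.30 (adjusted p = 2.37e-05). The catalytic subunit genes Prkaca and Prkacb were not called, with log2FC values of -0.02 and -0.07, and whether the subunit classes differ was not tested. With the trend along the library number, Prkar1b (adjusted p = 0.422), Adcy2 (0.234) and Prkar2a (0.0604) were not called.

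**Figure D4:**
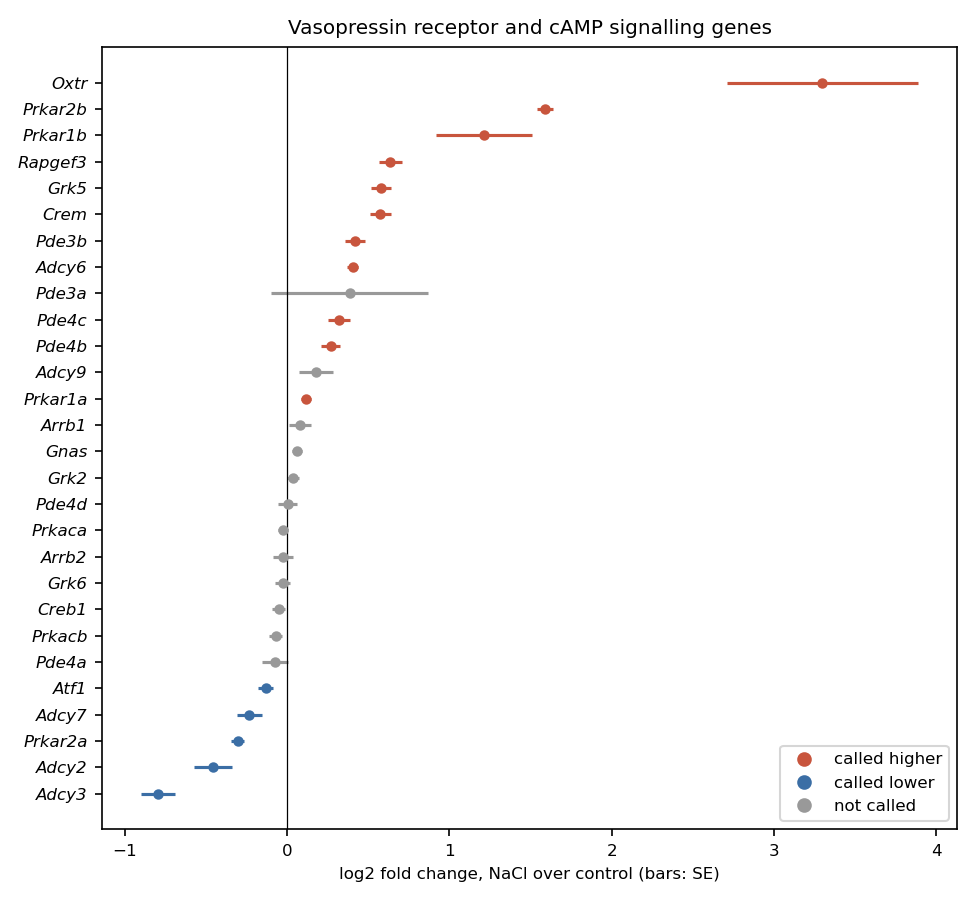
Log2 fold change of NaCl over control (points) with its SE (bars) for the 28 tested receptor and cyclic AMP genes, ordered by value; colour gives the edgeR call. Most values lie near 0, with Oxtr and Prkar2b highest and Adcy3 lowest.

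A list of 30 genes for the trafficking of Aqp2 vesicles was also examined. All 30 were tested, 5 (16.7%) were called higher and 9 (30.0%) lower (edgeR), beside 16.9% and 17.2% of all tested genes, and the median log2FC was 0.02. The share called higher was near that of all genes. Mal, a raft protein that binds Aqp2, rose from 171 ± 15.8 to 252 ± 18.4 CPM (SD, n = 4 each; log2FC 0.56; adjusted p = 9.38e-05), and Lrba, a protein kinase A anchor protein, rose with a log2FC of 0.44 (adjusted p = 1.14e-07). Nedd4, a ubiquitin ligase, rose by 0.18 on the log2 scale (adjusted p = 2.76e-04). The anchor protein gene Akap7 fell from 10.3 ± 0.557 to 7.15 ± 0.923 CPM (log2FC -0.52; adjusted p = 7.58e-04), and the vesicle SNARE gene Vamp3 fell with a log2FC of -0.37 (adjusted p = 1.22e-05). Cav1 (caveolin) had a log2FC of -0.19 (adjusted p = 0.00337). Under the trend along the library number, Mal (adjusted p = 0.0819), Nedd4 (0.116) and Cav1 (0.662) were not called, and the number called higher was 2 in place of 5 and the number called lower 11 in place of 9. With the library number centred within its group, 9 were called higher and 10 lower.

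Transcription factor genes of the collecting duct were the last list, with 12 of 15 tested, 5 (41.7%) called higher and 3 (25.0%) lower (edgeR), beside 16.9% and 17.2% of all tested genes, and a median log2FC of 0.12. Ehf, an ETS factor of epithelia, rose from 20.4 ± 2.45 to 71.6 ± 4.64 CPM (SD, n = 4 each) with a log2FC of 1.82 (SE 0.075; adjusted p = 3.00e-10). Pax2 rose from 78.8 ± 6.21 to 185 ± 8.30 CPM (log2FC 1.23; adjusted p = 1.57e-10), and Nr1h4, the bile acid receptor gene, rose from 4.05 ± 0.830 to 8.53 ± 0.358 CPM (log2FC 1.08; adjusted p = 1.14e-05). Nfat5, the tonicity-responsive factor, had a log2FC of 0.28 (SE 0.040; adjusted p = 3.96e-05). Gata3, Tfcp2l1 and Hoxb7 fell, with log2FC values of -0.44, -0.38 and -0.25 (adjusted p = 0.00341, 3.47e-04 and 0.00119), and Gata3 was not called with that trend (adjusted p = 0.223). Elf3 had a log2FC of 0.20 and was not called (adjusted p = 0.287). With the library number centred within its group it was called higher (0.20; adjusted p = 4.78e-04), and with the trend along the library number its direction reversed to -0.43 (adjusted p = 5.04e-04).

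The label of the cells was compared with marker genes. Of 19 principal cell markers of the collecting duct, 17 had a row and 14 were tested, with 3 (21.4%) called higher and 3 (21.4%) lower, beside 16.9% and 17.2% of all tested genes. Among the 12 with a row other than the aquaporin, urea transporter and V2 receptor genes, Cdh16 alone was called higher. Those called higher were Cdh16 and, of the genes described above, Slc14a2 and Avpr2. Avpr2 passed the filter through the NaCl libraries, so its direction adds nothing here. Those called lower were Scnn1g, Gata3 and Tfcp2l1. The epithelial markers Cdh16 and Krt18 were high in the controls, at 639 ± 77.3 and 217 ± 25.9 CPM (SD, n = 4 each). Krt7, Tfcp2l1 and Krt8 had 338 ± 35.8, 130 ± 13.6 and 109 ± 13.6 CPM in the controls (SD, n = 4 each). Krt19, Epcam and Gata3 had 70.0 ± 16.2, 27.3 ± 3.18 and 8.10 ± 0.816 CPM (SD, n = 4 each). The genes for the epithelial sodium channel and for the enzyme Hsd11b2 were low in the controls, with Scnn1b at 0.246 ± 0.0836, Hsd11b2 at 0.683 ± 0.486, Scnn1a at 2.12 ± 0.217 and Scnn1g at 3.77 ± 0.316 CPM (SD, n = 4 each). Cdh16 rose with NaCl (log2FC 1.11; edgeR adjusted p = 9.42e-06) and Scnn1g fell (-0.84; adjusted p = 3.74e-04). The defining water channel Aqp2 was at 0 counts in 2 control libraries, and Elf5 and Fxyd4 had no matched row. The thin descending limb list, whose members include Aqp1 and Slc14a2, had 4 other genes, with a summed level of 10.8 to 15.6 CPM in control and 9.46 to 14.6 CPM in NaCl libraries. Of these Epha7 rose (log2FC 1.49; edgeR adjusted p = 1.39e-04), Fst and Bst1 fell (-0.78, adjusted p = 0.0101, and -0.50, adjusted p = 0.0454), and Corin did not pass the filter. The summed level of the 3 endothelial markers with a row other than Aqp1 was 5.68 to 6.79 CPM in control and 3.03 to 4.09 CPM in NaCl libraries, while Pecam1, Kdr and Tie1 had no matched row. Plvap made up most of this sum, at 5.51 ± 0.676 and 3.07 ± 0.398 CPM (SD, n = 4 each), and was called lower (log2FC -0.85; edgeR adjusted p = 1.66e-04). Cdh5 was not called, and Emcn did not pass the filter. Of 8 proximal tubule markers 3 had a row, and their sum was 162 to 205 CPM and 155 to 177 CPM, nearly all of it Lrp2 (185 ± 20.6 and 162 ± 8.88 CPM; SD, n = 4 each). Of 5 thick ascending limb markers 4 had a row, with a sum of 9.47 to 12.0 CPM in control and 18.6 to 24.9 CPM in NaCl libraries, of which Kcnj1, a potassium channel gene, made up most. Kcnj1 had 8.08 ± 1.19 and 17.3 ± 2.74 CPM (SD, n = 4 each) and was called higher (log2FC 1.09; edgeR adjusted p = 5.31e-06), where 16.9% of all tested genes were. Umod, Slc12a1 and Cldn16 were not called, with log2FC values of 0.29, 0.63 and -0.97. Of 7 intercalated cell markers 2 had a row, Slc4a9 and Atp6v0d2, with a sum of 5.34 to 10.4 CPM in control and 1.37 to 2.45 CPM in NaCl libraries, and both were called lower, where 17.2% of all tested genes were. The 2 distal convoluted tubule markers with a row summed to 20.6 to 28.3 CPM and 22.1 to 29.3 CPM. The 6 fibroblast markers with a row summed to 3128 to 3634 CPM in control and 2819 to 3253 CPM in NaCl libraries. Col1a1 made up most of this, at 2492 ± 160 and 2147 ± 153 CPM (SD, n = 4 each). Of the 6, 1 was called higher and 2 lower, beside 16.9% and 17.2% of all tested genes. Pdgfrb was higher (log2FC 0.70; edgeR adjusted p = 1.08e-06), and Col1a1 and Pdgfra were lower (-0.21 and -0.67; adjusted p = 0.00808 and 0.0332). The part of these cell type markers in the results was not tested.

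The fold changes of the 6 tested genes were set beside those of each other setting. Aqp1 stayed between 2.80 and 2.88 and Slc14a2 between 1.0 and 1.27 over 18 settings each, and both were called in all of them. Of these, the threshold of 0.01 reads the reported fit again and is not a refit. Avpr2 and Aqp5 were called in each setting that tested them except the one with the trend. Of the 4 genes called higher, 2 were called under that trend, which shares most of its course with the order of the groups.

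**Figure D5:**
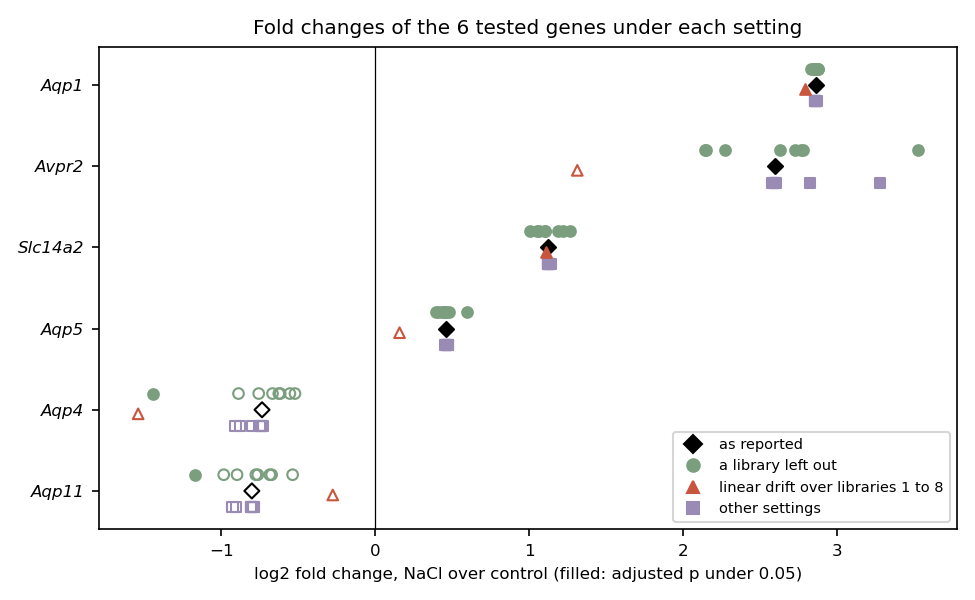
Log2 fold change of NaCl over control for the 6 tested genes in the reported fit, with 1 library left out, with a linear drift along the library number and in the other settings; filled symbols have an adjusted p under 0.05. Aqp1 and Slc14a2 keep filled symbols throughout, and the trend moves Avpr2 and Aqp5 below the threshold.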

How the data were processed

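RNA of 8 libraries, 4 control and 4 NaCl, was analysed from the raw count table that the authors deposited, with 35.29 to 47.57 M counts per library. A second table, deposited by the authors, held a normalized signal, the same counts after division by 1 factor for each library (0.864 to 1.145), and served as an alternative. Trim Galore 0.6.7, STAR, DESeq2 1.34.0 and mm10 are named in the submitters' processing notes, and the counting program and strand setting are not given in the sources used here.

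Counts were tested over all genes in R 4.3.3 with edgeR 4.0.16 (filterByExpr at a minimum count of 10, 14024 genes tested, TMM factors, robust quasi-likelihood F test, Benjamini-Hochberg adjustment over all genes tested, call at an adjusted p-value under 0.05). Totals scaled by TMM gave CPM, and a prior count of 2 was added for log2 CPM. Lengths, coordinates and overlaps came from GENCODE M21 (GRCm38, the build mm10 names), sequence sharing from blastn 2.17.0, and promoter sequences from RefSeq (GRCm38.p6). Windows were taken for 6 of the 8 genes, and Slc14a2 and Aqp4, both on chromosome 18, were left out by choice. The gene test was tested on simulated data with the same spread for all genes and changes only in genes above 1 CPM. Genes under that level, such as Avpr2 and Aqp2, are not covered by it.

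The genes and lists were chosen with earlier results of these data known. Of each list, the called genes with the 3 highest and 3 lowest log2 fold changes were named, with Avpr1a, Avpr1b, Oxtr, Gnas, Adcy6, Nfat5, Aqp2 and Elf3 whatever their values, and the 5 genes most like Aqp1, Slc14a2 and Avpr2. Adcy7, Adcy9, Prkar1a, Prkaca, Prkacb, L1cam and the single cell type markers were chosen after their values were seen and were not refitted one by one. Alternatives were median-of-ratios factors, library totals alone, no filter, at least 10 counts in every library, DESeq2 1.42.0, limma-voom and limma 3.58.1 on log2 of the normalized values plus 1, a threshold of 0.01, the library number as a covariate in 2 forms, longest transcripts as lengths, and leaving out each library.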

Additional observations from a re-analysis of the deposited data

Results flagged for a closer look

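Each of the 8 genes was searched in each group for 1 library far from the rest. Of these 16 searches 2 found one, and chance alone gives about 0.8. In NaCl replicate 7, Aqp3 reached 0.291 CPM against 0.0837 to 0.118 CPM in its group. In NaCl replicate 8, Aqp4 reached 0.500 CPM against 0.121 to 0.167 CPM. The first value is 12 counts and the second is 21 counts. Neither gene was called with all libraries in the fit, and without NaCl replicate 8 Aqp4 was called lower (log2 fold change -1.44; edgeR adjusted p = 0.0393). Aqp4 then passed the filter through the control libraries alone, so the direction of that call adds nothing.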

How the results depend on the processing

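No paired analysis was possible because the control and NaCl libraries share no number in the labels. For 30 genes, those described here and those named by rule from the lists, the other settings gave 512 results. These include the reported fit read again at a threshold of 0.01. The call (adjusted p under 0.05, or under 0.01 in that setting) changed in 14, of which 10 were under a straight trend along the library number and 1 was a reversal, that of Elf3 (-0.43). That trend left 2 of the genes described here called higher in place of 4, with Avpr2 at 1.31, and gave 2 cyclic AMP genes called lower in place of 5 and 2 trafficking genes called higher in place of 5, with 11 called lower in place of 9. With the library number centred within its group, 9 trafficking genes were called higher, as were Gnas and Elf3. A threshold of 0.01 gave 3 cyclic AMP genes called lower. The cause of these changes was not tested. With each library left out in turn, the genes described here called higher numbered 4 to 5 (Aqp2 then passed the filter in some fits) and those called lower 0 to 1 (Aqp11 without NaCl replicate 7, Aqp4 without NaCl replicate 8). In those fits Aqp2 passed through the NaCl libraries alone and Aqp4 through the control libraries alone, so their directions add nothing to these counts. The cyclic AMP genes called lower numbered 3 to 5, with 3 without control replicate 1, 2 or 3 or NaCl replicate 8. The Avpr2 log2 fold change was between 2.14 and 3.53, highest without control replicate 3. The fit without a filter gave Aqp2 a log2 fold change of 3.55, and it was 4.86 without control replicate 3. With longest transcripts as lengths, Aqp11 and Aqp3 exchanged places 6 and 7 among the NaCl levels. At the depth of these libraries, Aqp2, Aqp3, Aqp4 and Avpr2 rest on at most 48 counts per library, so differences in them of a few counts could not be seen.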
